A study of Mus musculus with 87 samples.

Results

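The 48 genes described here are the detected genes of the table whose symbols begin with the proteasome stems Psma to Psmg followed by a digit. The name rule met 55 of the 37991 rows, of which 52 were protein coding, and 48 of those rose above a log2 RPKM (read counts divided by transcript length and by the total of mapped reads) of −1.5 in 1 or more libraries. They lie among 15396 detected genes of the series. Poly(A)-selected RNA of 80 individual livers in 19 groups was analysed, from male C57BL/6 mice aged 12 to 14 weeks at surgery, all entrained to light by day and feeding by night. Partial hepatectomy (PH), in which the larger part of the liver is cut away and the remnant regrows, or a sham laparotomy was performed at ZT2, 2 h after lights on. The livers from mice without an operation were taken at ZT2 (C0, n = 9), at ZT6 (C4, n = 3) and at the age of the 4-week group (C4W, n = 2). The post-PH livers were taken at 1 h (X1, n = 6), 4 h (X4, n = 3), 10 h (X10, n = 6), 20 h (X20, n = 6), 28 h (X28, n = 3), 36 h (X36, n = 6), 44 h (X44, n = 3), 48 h (X48, n = 5), 72 h (X72, n = 3), 1 week (X1W, n = 3) and 4 weeks (X4W, n = 2). The sham livers were taken at 1 h (S1, n = 6), 4 h (S4, n = 5), 10 h (S10, n = 3), 20 h (S20, n = 3) and 48 h (S48, n = 3).

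The proteasome is the protease that degrades ubiquitin-tagged proteins. Its core particle (20S) is a barrel of stacked rings of alpha and beta subunits, and 3 of the beta subunits, Psmb5, Psmb6 and Psmb7, carry the catalytic sites. Interferon signaling induces alternative catalytic subunits, Psmb8, Psmb9 and Psmb10, which replace the constitutive ones in newly assembled particles (the immunoproteasome) and favor the production of peptides for MHC class I. The regulatory particle (19S) caps the barrel, with a base that holds the Psmc ATPases, which unfold the substrate, and a lid that holds most Psmd subunits, one of which removes ubiquitin. Other caps are the activators PA28αβ (Psme1 and Psme2, also induced by interferon), PA28γ (Psme3, nuclear) and PA200 (Psme4, nuclear). Assembly of the core and of the base depends on the chaperones Psmg1 to Psmg4 and Psmd5, Psmd9 and Psmd10. In liver, as elsewhere, the genes of the particle are expressed in every cell, and they are known to rise together through the factor Nfe2l1 when proteolysis falls short.

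The promoter windows of a constitutive and an interferon-inducible catalytic group are shown first, because members of the 2 groups moved apart post-PH. Each is the 250 bases upstream of the annotated start, in RefSeq on GRCm38.p6 and in the direction of the gene. Capitals mark TGACNNNGC, the core of the antioxidant response element bound by Nfe2l1 and Nfe2l2. The windows are chr14:54617996-54618245 on the minus strand for Psmb5, chr11:70525107-70525356 on the plus strand for Psmb6, chr17:34197945-34198194 on the plus strand for Psmb8 and chr8:105938393-105938642 on the minus strand for Psmb10.
Psmb5: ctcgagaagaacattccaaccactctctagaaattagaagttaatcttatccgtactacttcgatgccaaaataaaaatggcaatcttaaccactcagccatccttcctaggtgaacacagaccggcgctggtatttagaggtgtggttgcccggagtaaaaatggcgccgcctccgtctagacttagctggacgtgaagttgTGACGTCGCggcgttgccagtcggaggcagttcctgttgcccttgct
Psmb6: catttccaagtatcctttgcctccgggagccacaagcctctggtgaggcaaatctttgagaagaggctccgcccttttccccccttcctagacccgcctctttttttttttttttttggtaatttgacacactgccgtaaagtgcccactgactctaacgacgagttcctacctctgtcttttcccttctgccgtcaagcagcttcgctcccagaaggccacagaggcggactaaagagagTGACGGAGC
Psmb8: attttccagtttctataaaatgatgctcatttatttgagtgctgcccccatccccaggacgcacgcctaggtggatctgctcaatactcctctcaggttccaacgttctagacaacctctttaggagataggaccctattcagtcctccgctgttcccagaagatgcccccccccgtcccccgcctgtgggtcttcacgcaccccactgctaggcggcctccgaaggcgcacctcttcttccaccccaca
Psmb10: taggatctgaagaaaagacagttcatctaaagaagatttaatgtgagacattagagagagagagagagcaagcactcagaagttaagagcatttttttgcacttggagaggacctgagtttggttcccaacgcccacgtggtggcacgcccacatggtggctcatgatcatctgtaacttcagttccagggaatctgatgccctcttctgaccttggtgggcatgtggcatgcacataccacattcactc
RefSeq windows were matched to 39 of the 48 members. TGACNNNGC was found on either strand in 5 of the 39 (Psmb5, Psmb6, Psmc6, Psmd12 and Psmd9), beside 11.5% of all 27025 genes with a window. CCAAT, the NF-Y box, was found in 13 of the 39, beside 37.5% of all genes, and in none of the 4 printed windows. The core of the interferon-stimulated response element, GAAA followed after any 2 bases by GAAA, was found in 3 of the 39 (Psmb3, Psmd4 and Psmd9), beside 3.46% of all genes, and likewise in none of the 4 windows. For these windows the last share was above that of all genes, on 3 genes, and the other two were close to it.

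Library depth, estimated from the spacing of low values, ran from 12.2 to 48.8 M reads with a median of 26.7 M. The hepatocyte markers, none of them at 0, summed to between 46600 and 56100 RPKM in C0 and between 29500 and 34600 RPKM in X10. One C0 liver (replicate 8) stood apart, with a sum over macrophage markers of 143 RPKM against a C0 median of 23.5 and a sum over neutrophil markers of 44.8 RPKM. Among the X36 livers, replicate 2 stood apart, with a sum over 7 cell-cycle markers of 48.4 RPKM against a group median of 77.2. Since RPKM divides by the library total, the median gene itself moved between groups, by between −0.20 (X4) and 0.24 (X48) against C0 on the log2(RPKM + 0.25) scale and by 0.27 between X48 and S48. Counts are therefore also given with libraries rescaled to 1 common median (same median) or by their median ratio to the mean library (median ratio). In whole tissue, fewer cells of a type and less RNA per cell cannot be told apart. A difference was called at a Benjamini-Hochberg adjusted p below 0.05 (limma, over all 15396 genes) and a log2 fold change beyond 0.5, and ± after a log2 fold change is its standard error.

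Of the 48 members, 45 passed the detection threshold in every library. They comprise 7 alpha ring, 4 structural beta, 3 constitutive catalytic and 2 interferon-inducible catalytic subunits, 6 ATPases and 11 non-ATPases of the 19S particle, 3 base and 4 core assembly chaperones, 4 activators and the inhibitor Psmf1. The 3 others passed through part of the libraries only: Psma8, a testis alpha subunit, in 22, Psmc3ip, which shares the stem but encodes a meiotic recombination protein, in 19, and Psme2b-ps, a copy of Psme2, in 26. Psmc3ip passed mostly through groups in which it was high, so its place in the counts of called members is a description and no support for them. Just inside the threshold were Psme2b-ps, with a highest log2 RPKM of −0.59, and Psma8, with 0.04. Just outside were the pseudogene Psmb7-ps2 at −3.65 and Psmb11, the thymus catalytic subunit, at −6.77. Psmb9, the interferon-inducible counterpart of Psmb6, was listed at 0 in all 80 libraries in each of its 2 overlapping rows (chr17:34318932-34324709, mm9), so that no level or ratio could be given for it.

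In C0 livers, the 31 subunits of the core and regulatory particle that belong to the constitutive set lay between 14.1 and 95.7 RPKM in mean, with a median of 33.6, and Psmb1 was the highest. These levels are per length, so a comparison between genes depends on the length assigned to each. The annotated exons cover 2736 bases for Psmb8 and 922 for Psmb5, and 1270 for Psmb10 and 1214 for Psmb7. The interferon-inducible subunits were lower in RPKM. Psmb8 (chr17:34334666-34338399, mm9) ranged from 4.79 to 9.25 RPKM and Psmb10 (chr8:108459628-108462292, mm9) from 10.5 to 18.5 RPKM, against 44.1 to 55.7 RPKM for Psmb5 (chr14:55232644-55236851, mm9) and 66.97 to 99.1 RPKM for Psmb7 (chr2:38443556-38499607, mm9). In RPKM, Psmb8 amounted to 12.1% of Psmb5, and Psmb10 to 15.4% of Psmb7, as means of the log2 ratios.

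**Figure D1:**
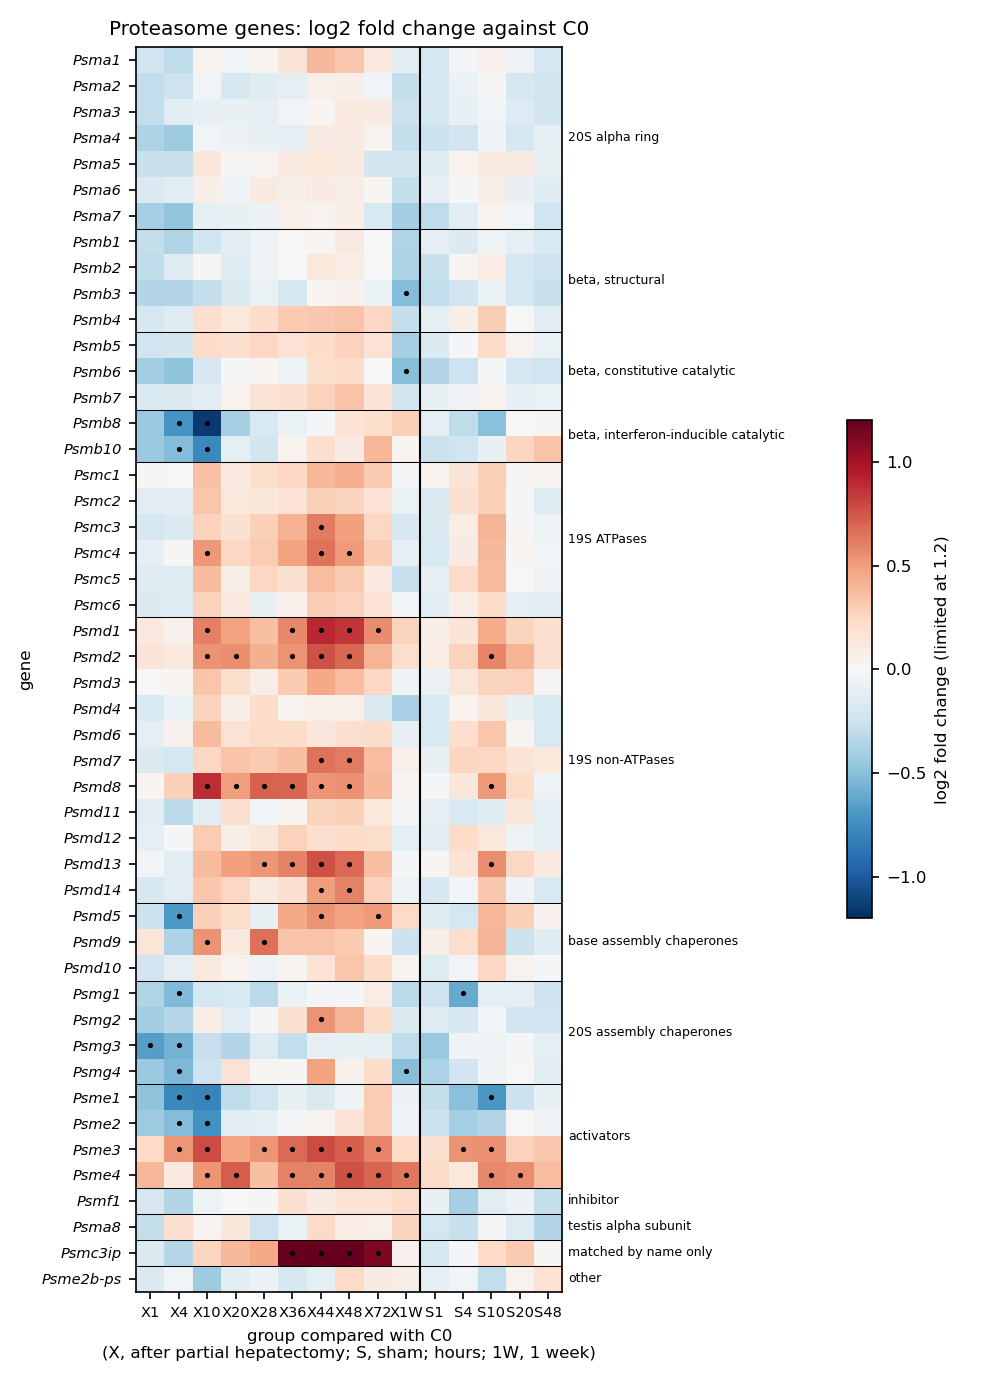
Log2 fold changes of the members (rows, grouped by role) in each post-PH and sham group against C0 (columns), on the log2(RPKM + 0.25) scale with the color limited at 1.2, where dots mark called differences. The interferon-inducible Psmb8 and Psmb10 with Psme1 and Psme2 stand out as lower at 10 h post-PH (for Psmb8 by −1.15), and Psmd8, Psmd1 and Psme3 as higher at several times from 10 h on (for Psmd8 by 0.89 at 10 h).

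Against C0, the largest falls among the subunits were in the interferon-inducible set at 10 h. Psmb8 was at 4.79, 5.54 and 9.25 RPKM (lowest, median and highest) in the 9 C0 livers and at 1.88, 2.26 and 4.34 RPKM in the 6 X10 livers, so that the groups did not overlap. Its log2 fold change was −1.15 ± 0.13 (limma, adjusted p = 1.5e-11). Psmb10 was at 10.5, 11.9 and 18.5 RPKM in C0 and at 5.57, 7.04 and 8.68 RPKM in X10, again without overlap (log2 fold change −0.77 ± 0.12, limma adjusted p = 1.6e-07). Psme1 (chr14:56196960-56200366, mm9) was at 26.4, 31.2 and 40.4 RPKM in C0 and at 16.5, 17.7 and 21.5 RPKM in X10 (−0.80 ± 0.10, limma adjusted p = 1.3e-10). Its partner Psme2 (chr14:56206278-56209950, mm9) was at 27.4, 32.0 and 34.5 RPKM in C0 and at 17.3, 18.6 and 20.4 RPKM in X10 (−0.73 ± 0.08, limma adjusted p = 5.1e-13). These were the 4 members called lower, beside 15.2% of all genes. All 4 remained called lower under both other scalings, without C0 replicate 8 (for Psmb8 −1.07) and with each of 3 sets of 3 C0 livers. Psme2 may share reads with its copy Psme2b-ps, and its level is uncertain to that extent. The constitutive catalytic subunits were not called at 10 h. Psmb5 was at 44.1, 46.8 and 55.7 RPKM in C0 and at 52.0, 55.7 and 60.1 RPKM in X10, and the median log2 fold change over the 3 constitutive subunits was −0.12.

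**Figure D2:**
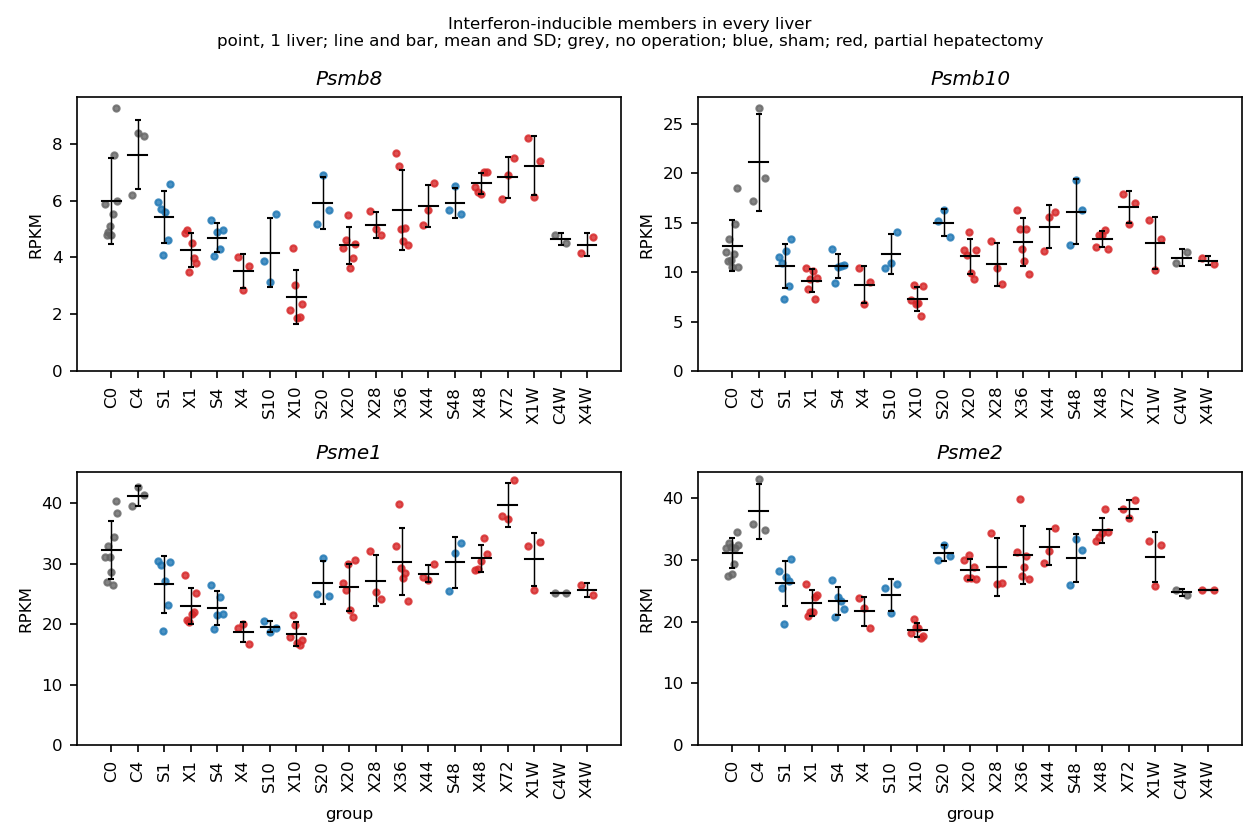
RPKM of the interferon-inducible members in every liver (points, with the group mean and SD) by group along the time course, for livers without operation (grey), after sham (blue) and after PH (red). All 6 X10 livers lie below all 9 C0 livers for Psmb8, Psmb10, Psme1 and Psme2, and the single highest C0 liver for Psmb8, at 9.25 RPKM, is replicate 8.

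The C0 livers were taken at ZT2 and the X10 livers at ZT12, so in that comparison the hour of day, the operation and the resection cannot be told apart. The sham livers at 10 h share the hour and the laparotomy. By the study's account the S10 and S20 livers came from 1 experimental period and the X10 and X20 livers from 2. Period is thus only partly matched between these post-PH and sham groups. Psmb8 was at 3.88, 3.12 and 5.52 RPKM in the 3 S10 livers, overlapping X10 (X10 against S10 −0.65 ± 0.18, limma adjusted p = 0.0090). Psmb10 was at 10.4, 10.9 and 14.1 RPKM in S10, above all X10 livers (−0.68 ± 0.17, limma adjusted p = 0.0033). These were the only 2 members called between X10 and S10 (0 higher, beside 3.4% of all genes, and 2 lower, beside 3.62%), and both were called under each scaling. Neither was called without the livers numbered 3 (Psmb8 −0.49, adjusted p = 0.18; Psmb10 −0.53, adjusted p = 0.12), and without those numbered 1 Psmb8 was not (adjusted p = 0.087). Psme1 was at 20.5, 18.8 and 19.4 RPKM in S10, already below every C0 liver (S10 against C0 −0.70 ± 0.12, limma adjusted p = 3.4e-06), and overlapped X10. Psme2 was at 25.5, 21.4 and 26.1 RPKM in S10, between the C0 and X10 ranges.

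The ratio of an alternative to a constitutive subunit within a liver does not depend on the scaling of the library. Psmb8 was at 4.45% of Psmb5 in X10 as a mean of log2 ratios, against 12.1% in C0 and 19.7% in X1W. The log2 ratio was −4.49 ± 0.47 (SD, n = 6) in X10 and −3.79 ± 0.48 (SD, n = 3) in S10, a difference of −0.70 (two-sided exact permutation p = 0.12, Benjamini-Hochberg adjusted p = 0.22). The log2 ratio of Psmb10 to Psmb7 was lower post-PH than after sham by −0.53 at 10 h (exact permutation p = 0.024), −0.52 at 20 h (exact permutation p = 0.024) and −0.68 at 48 h (exact permutation p = 0.036). In these 3 comparisons every post-PH liver lay below every sham liver, and the p-values are the smallest that the numbers of livers allow. Psmb10 itself was not called at 20 h (−0.37, limma adjusted p = 0.13) or 48 h (−0.25, limma adjusted p = 0.24). At 48 h it was called lower under both other scalings. The median log2 fold change over the constitutive catalytic subunits, Psmb7 among them, was 0.43 in X48 against S48. The ratio of Psme1 to Psme3 differed between X10 and S10 by −0.33 (exact permutation p = 0.12). The post-PH mean was lower in all 15 comparisons of 3 ratios at 5 times, but none passed after adjustment over the 15 (smallest adjusted p = 0.18).

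**Figure D3:**
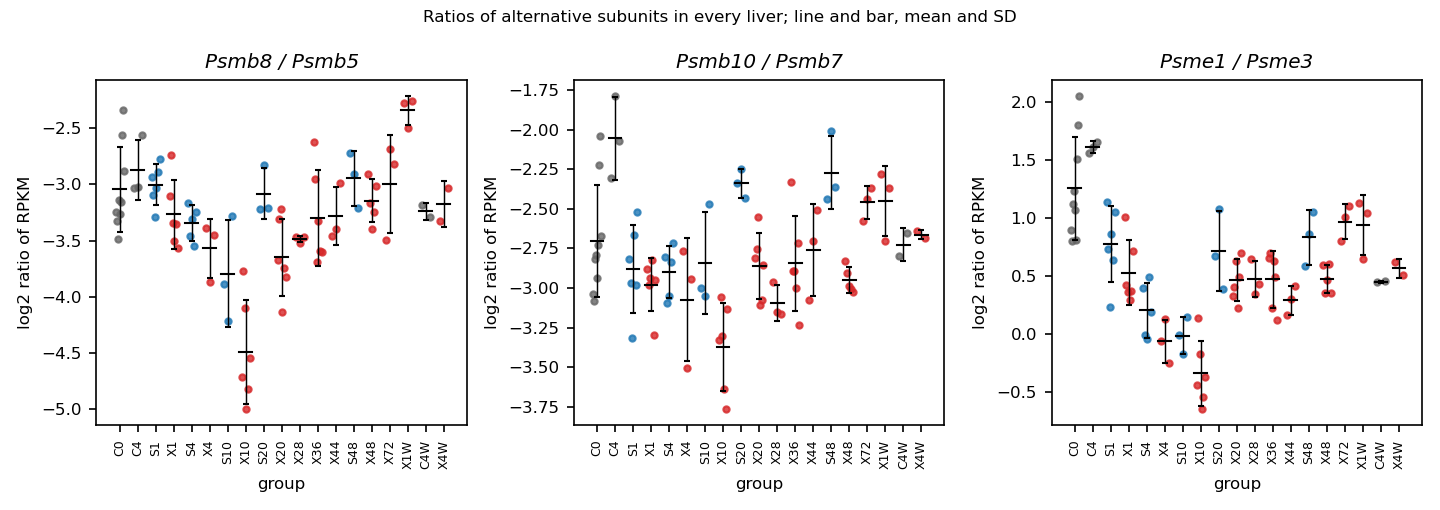
Log2 ratios of Psmb8 to Psmb5, Psmb10 to Psmb7 and Psme1 to Psme3 in each liver (points, with the group mean and SD) by group, colored by operation (grey none, blue sham, red PH). The mean log2 ratio of Psmb8 to Psmb5 is −4.49 in X10 against −3.04 in C0, and the ratio of Psmb10 to Psmb7 separates X48 from S48 by −0.68.

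Markers of immune cells, which express these subunits highly, moved in part with these genes. Lymphocyte markers summed to between 0.892 and 5.24 RPKM in C0 (median 1.98) and to between 0.419 and 0.959 RPKM in X10 (median 0.708), and 4 of the 6 were called lower. The macrophage markers summed to between 9.17 and 143 RPKM in C0 and to between 4.20 and 25.0 RPKM in X10, with 3 of the 6 called lower, and of the 3 general leukocyte markers 1 was called lower. The sum over neutrophil markers went the other way, from between 0.306 and 44.8 RPKM in C0 (median 1.0) to at least 3.16 RPKM in X10 (median 4.56). Of the 5 markers, 1 was called higher, beside 21.2% of all genes, and 0 lower. Under each other scaling 0 of the 5 were called higher. Between X10 and S10 none of these markers was called, and the sum over lymphocyte markers in S10 was between 0.245 and 0.812 RPKM. Markers of other cell types also fell in part. In X10 against C0, 3 of 6 hepatocyte, 2 of 4 stellate cell, 3 of 4 cholangiocyte and 1 of 4 endothelial markers were called lower. Of all genes 15.2% were called lower, and 1 of the hepatocyte markers was called higher. The part of any of these cell types in the falls of Psmb8, Psmb10, Psme1 and Psme2 was not tested. A list of 18 measured genes of antigen presentation and interferon response includes the 4 members above. Between X10 and C0, 11 of the 18, these 4 among them, were called lower, beside 15.2% of all genes. The list had 1 gene called higher, beside 21.2% of all genes, and a median log2 fold change of −0.75 beside 0.07 over all genes. Both the count called lower and this median include the 4 members, so they give no separate support for the falls of those members. The fallers included B2m, the light chain of MHC class I (−1.198 ± 0.08, limma adjusted p = 2.5e-20), H2-K1, an MHC class I heavy chain (−0.76 ± 0.08), Tapbp, which loads peptides onto MHC class I (−0.65 ± 0.08), and Isg15, an interferon-induced ubiquitin-like modifier (−1.13 ± 0.18). The gene called higher was Nlrc5, a transactivator of MHC class I (0.91 ± 0.16). Against S10, 5 of the 18 were called lower, beside 3.62% of all genes, and 0 higher, beside 3.4%. The 5 were the members Psmb8 and Psmb10, and Tapbp (−0.52 ± 0.11), Ifit1 (−1.28 ± 0.32) and Isg15 (−0.88 ± 0.24).

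At 4 h, Psmb8, Psmb10, Psme1 and Psme2 were also called lower, but of these only Psmb8 and Psme1 under all 3 scalings. Psmb8 was at 4.02, 2.86 and 3.70 RPKM in the 3 X4 livers (X4 against C0 −0.70 ± 0.17, limma adjusted p = 0.00024) and Psme1 at 19.3, 20.0 and 16.8 RPKM (−0.77 ± 0.12, limma adjusted p = 2.8e-07), all below every C0 liver. Psmd5, a chaperone of the 19S base, was at 4.62, 4.37 and 4.35 RPKM against 5.43, 7.34 and 8.75 RPKM in C0 (−0.69 ± 0.11). The core chaperones Psmg1, Psmg3 and Psmg4 were called lower too, and Psme3 was called higher (0.53 ± 0.10). In all, 8 members were called lower, beside 26.9% of all genes, and 1 higher, beside 11.2%. After scaling to the same median, and likewise by the median ratio, 3 were lower and 1 higher (Psmb8, Psme1, Psmd5 and Psme3). Psmb10 (−0.52 ± 0.16) and Psmg4 (−0.54 ± 0.14) were not called without C0 replicate 8.

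The C4 livers are unoperated and share the hour of X4 and S4, as the C0 livers share that of the 48 and 72 h groups. In C4 against C0, 2 members were called higher, beside 5.81% of all genes, and 0 lower, beside 2.08%. Psmb10 was at 17.2, 26.6 and 19.5 RPKM in C4 (0.72 ± 0.16, limma adjusted p = 0.0011), and Psmg4 was the other (0.53). Under each other scaling 1 member was called higher (Psmb10) and 1 lower (Psme2b-ps). Of all genes, 3.43% were then higher and 3.72% lower (same median), or 3.98% and 3.24% (median ratio). Without the C4 and C0 livers numbered 2, 0 members were called (Psmb10 0.53, limma adjusted p = 0.15), and 4 were called without C0 replicate 8 or 9. The count was 5 with C0 replicates 1 to 3, 10 with 4 to 6 and 0 with 7 to 9 (Psmb10 0.53, limma adjusted p = 0.13). By the study's account the C4 livers came from 1 of 3 experimental periods and the C0 livers from each, and the labels do not link replicate numbers to periods, so that hour and period cannot be told apart. With C4 in place of C0, 18 members were called between X4 and the unoperated livers, 2 higher, beside 11.7% of all genes, and 16 lower, beside 33.9%, including Psmb10 (−1.25), Psme1 (−1.13), Psmg4 (−1.07), Psmb8 (−1.06) and Psmb6 (−0.96). In the S4 livers 10 were called, 2 higher, beside 12.2% of all genes, and 8 lower, beside 31.0%, with Psmb10 at −0.96 and Psme1 at −0.86. The macrophage markers summed to between 28.6 and 37.1 RPKM in C4, 10.2 and 26.4 RPKM in S4 and 10.5 and 13.2 RPKM in X4. The lymphocyte markers summed to between 2.70 and 6.16 RPKM in C4, 0.499 and 1.34 RPKM in S4 and 0.513 and 0.646 RPKM in X4, and 3 of the 6 were called higher in C4 than in C0, under all 3 scalings, against 0 of the 6 macrophage markers. The neutrophil markers had a median sum of 2.42 RPKM in C4, 19.2 RPKM in S4 and 5.5 RPKM in X4. For these 3 marker lists, their part in these differences was not tested. Between X4 and S4, 2 members were called lower (beside 5.48% of all genes) and 0 higher (beside 3.16%). Psmd9, another base chaperone, was at 3.45, 4.46 and 4.46 RPKM in X4 and at 4.78, 5.80, 6.77, 7.30 and 6.98 RPKM in S4 (−0.58 ± 0.12, limma adjusted p = 0.00029), without overlap. Psmg3, a core chaperone, was at 8.38, 6.93 and 6.83 RPKM in X4 and at 10.9, 9.46, 12.7, 10.1 and 10.6 RPKM in S4 (−0.53 ± 0.14, limma adjusted p = 0.0052). After scaling to the same median 1 member was called and after scaling by the median ratio 0. Leaving out the livers numbered 3 or 6 left 1 call.

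The members called higher at 10 h were 3 of 11 non-ATPases and 1 of 6 ATPases of the 19S particle, 2 of 4 activators and 1 of 3 base chaperones. Psmd8, a lid subunit (chr7:29959207-29965692, mm9), was at 42.2, 51.5 and 60.0 RPKM in C0 and at 75.7, 95.6 and 106.9 RPKM in X10, without overlap (0.89 ± 0.07, limma adjusted p = 2.2e-17). Psme3 (chr11:101177527-101184851, mm9) was at 9.23, 13.7 and 16.8 RPKM in C0 and at 19.6, 23.4 and 26.6 RPKM in X10, likewise without overlap (0.78 ± 0.08, limma adjusted p = 5.8e-13). Both were called under all 3 scalings. The base scaffolds Psmd1 (0.60 ± 0.08) and Psmd2 (0.54 ± 0.09), the ATPase Psmc4 (0.52 ± 0.06), Psme4 (0.53 ± 0.11) and Psmd9 (0.54 ± 0.09) were also called higher, but not after scaling to the same median or by the median ratio. That made 7 members higher, beside 21.2% of all genes, and under each other scaling 2 higher and 5 lower, beside 13.1% and 23.5% of all genes (same median) and 14.8% and 21.0% (median ratio). The median log2 fold change at 10 h was 0.34 over the 6 ATPases and 0.33 over the 11 non-ATPases, against −0.04 over the 7 alpha ring and −0.11 over the 4 structural beta subunits, and 0.07 over all genes. None of the alpha ring or structural beta genes was called.

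Psmd8 and Psme3 were also called higher in the sham livers at 10 h. Psmd8 was at 70.5, 74.4 and 73.2 RPKM in S10 (S10 against C0 0.51 ± 0.09, limma adjusted p = 2.8e-06) and Psme3 at 20.7, 21.2 and 17.6 RPKM (0.55 ± 0.10). Psmd2, Psmd13 and Psme4 were called higher as well, so that 5 members were called higher, beside 17.9% of all genes, and 1 (Psme1) lower, beside 11.2%. None of the 5 was called after either other scaling, where 3 members (same median) or 2 (median ratio) were lower, and without the C0 liver numbered 9, 3 members were called in all. No member was called higher in X10 than in S10.

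From 20 to 72 h post-PH, members of the 19S particle, the activators Psme3 and Psme4, the chaperones Psmd5, Psmd9 and Psmg2, and Psmc3ip were called higher at 1 or more times. The members called higher against C0 numbered 3 at 20 h (beside 16.5% of all genes), 4 at 28 h (13.6%), 7 at 36 h (25.7%), 13 at 44 h (30.8%), 10 at 48 h (30.4%) and 5 at 72 h (26.6%). No member was called lower at these times, beside 7.63%, 11.3%, 9.29%, 8.42%, 7.66% and 6.59% of all genes. At none of these times was the share of members called higher above that of all genes. These comparisons share the C0 livers, taken at ZT2. The 20 and 44 h livers were taken at ZT22, the 28 h livers at ZT6 and the 36 h livers at ZT14. No sham livers were taken at 28, 36, 44 or 72 h. By the study's account the 28, 44, 48 and 72 h livers came from 1 of 3 experimental periods. The C0 livers came from each. Where hour or period differ, they cannot be told apart from the operation and the resection. With each library scaled to the same median, the members called were 1 higher and 3 lower at 20 h, 2 and 0 at 28 h, 1 and 3 at 36, 44 and 72 h, and 1 and 2 at 48 h. Of all genes, between 7.89% and 12.2% were then higher and between 13.2% and 28.2% lower at these 6 times. By the median ratio they were 1 higher and 2 lower at 20 h, 2 and 0 at 28, 44 and 48 h, 1 and 1 at 36 h, and 1 and 0 at 72 h, beside between 9.31% and 15.9% of all genes higher and between 13.1% and 18.7% lower. Leaving out the livers numbered 9 left 1 call at 20 h and 2 at 28 h.

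Psmd1 (chr1:87960962-88059363, mm9), a scaffold of the base, had the largest difference among the 19S subunits at 44 h. It was at 13.9, 19.8 and 22.7 RPKM in C0, at 41.7, 34.97 and 29.6 RPKM in X44 (0.91 ± 0.11, limma adjusted p = 5.6e-11) and at 28.8, 33.9, 37.8, 35.4 and 34.2 RPKM in X48. All livers of both post-PH groups lay above all C0 livers. Among the ATPases Psmc4 had the largest difference at 44 h (0.65 ± 0.08), followed by Psmc3 (0.63 ± 0.09). Psme4 (chr11:30671726-30780361, mm9) was at 5.91, 13.5 and 15.5 RPKM in C0 and at 18.9, 20.2, 19.5, 18.2 and 19.7 RPKM in X48, without overlap. Psme3 was at 24.9, 22.3 and 22.5 RPKM in X44. Over the roles, 6 of 11 non-ATPases, 2 of 6 ATPases, 2 of 4 activators, 1 core chaperone (Psmg2), 1 base chaperone (Psmd5) and none of the 14 alpha, structural beta or constitutive catalytic subunits were called higher at 44 h. Most of these calls were not kept under the other scalings. At 44 h, and likewise at 48 h, 1 member was then called higher (same median) or 2 (median ratio). The median log2 fold change at 44 h was 0.50 over the non-ATPases and 0.10 over the alpha ring, beside 0.23 over all genes. With each of the 3 sets of 3 C0 livers, 6 of the 13 members called at 44 h (Psmc3, Psmc3ip, Psmc4, Psmd1, Psmd7 and Psme3) and 4 of the 10 at 48 h (Psmc3ip, Psmd1, Psmd14 and Psmd7) were called. Psmc3ip passed the detection threshold mostly through such late groups, so its place among these calls is a description and no support.

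**Figure D4:**
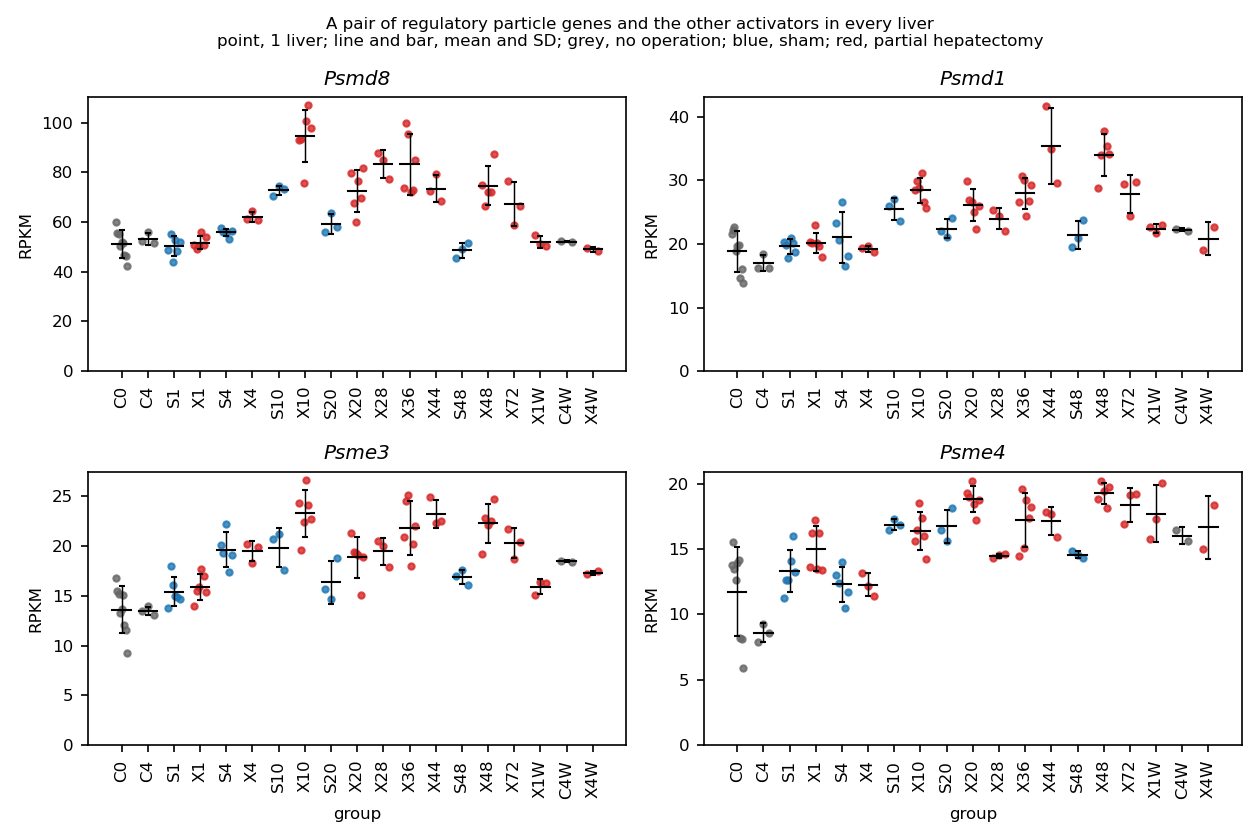
RPKM of Psmd8, Psmd1, Psme3 and Psme4 in every liver (points, with the group mean and SD) by group, for livers without operation (grey), after sham (blue) and after PH (red). Psmd8 is highest at 10 h, where the X10 livers lie between 75.7 and 106.9 RPKM, and Psmd1 is highest at 44 h, between 29.6 and 41.7 RPKM.

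At 48 h the sham livers share both the hour of day and the laparotomy with the post-PH livers. Against S48, 9 members were called higher in X48, beside 24.5% of all genes, and 0 lower, beside 2.69%. Psmd14, the deubiquitinase of the lid (chr2:61549751-61638433, mm9), was at 20.4, 21.96, 24.9, 24.3 and 21.1 RPKM in X48 and at 10.96, 12.7 and 15.9 RPKM in S48 (0.78 ± 0.11, limma adjusted p = 2.0e-08). Psmd1 (0.66 ± 0.12), Psmd8 (0.61 ± 0.10) and Psmd13 (0.56 ± 0.10) were the other non-ATPases. Psmc3, an ATPase, was at 38.3, 44.5, 47.4, 47.4 and 42.7 RPKM in X48 and at 25.3, 30.3 and 34.7 RPKM in S48 (0.55 ± 0.09, limma adjusted p = 1.7e-06), and Psmc4 was close to it (0.55 ± 0.09). Psma1 was the alpha ring subunit called (0.53 ± 0.10, limma adjusted p = 2.4e-05), at 40.7, 47.4, 50.8, 49.1 and 46.3 RPKM in X48 and at 27.4, 30.7 and 39.7 RPKM in S48. Psmg2, a core chaperone, was at 9.17, 9.47, 9.97, 11.6 and 9.09 RPKM in X48 and at 5.57, 6.48 and 6.76 RPKM in S48 (0.63 ± 0.12). The rest of the particle moved by less in the same direction, so that 37 members were higher on the adjusted p alone, beside 40.9% of all genes, and 0 lower, beside 3.9%, and the members' median of 0.38 lay beside 0.27 over all genes. The role medians were 0.29 over the alpha ring, 0.33 over the structural beta, 0.43 over the constitutive catalytic, 0.42 over the ATPases, 0.49 over the non-ATPases and −0.05 over Psmb8 and Psmb10. None of the other 8 members was called higher under either other scaling. The split was then 1 higher, which was Psmc3ip, and 1 lower, beside 6.63% and 15% of all genes (same median) and 8.86% and 8.85% (median ratio). Without the livers numbered 3, 14 members were called. The S48 group against C0 had 0 calls (limma), beside 3.83% of all genes called higher and 5.05% lower. At an unadjusted p below 0.05, 3 members were higher (beside 13.3% of all genes) and 12 lower (beside 17.8%).

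**Figure D5:**
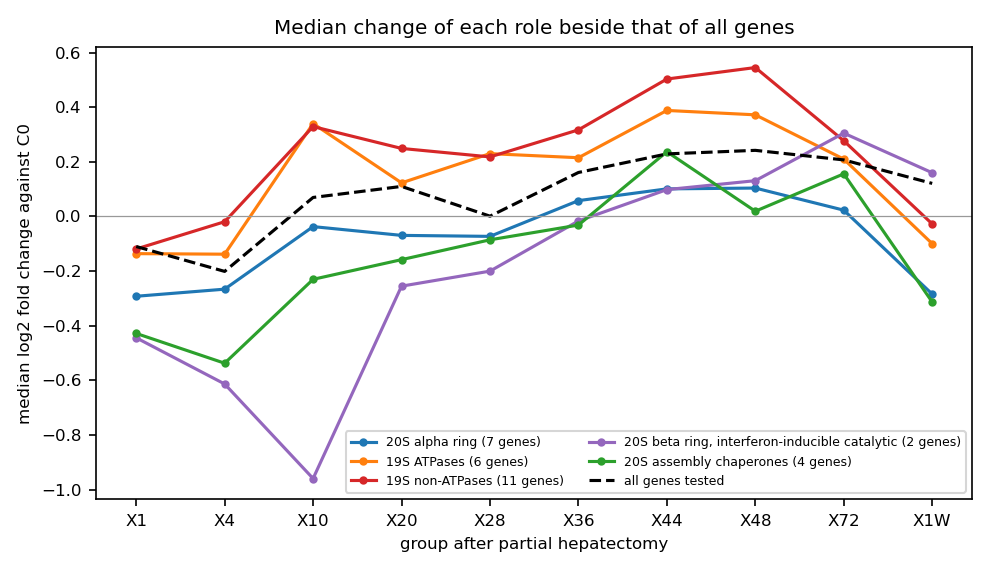
Median log2 fold change (vertical axis) of 5 role groups of members in each post-PH group (horizontal axis) against C0, beside the median over all genes tested (dashed line). At 10 h the interferon-inducible catalytic pair lies at −0.96, while the 19S ATPases lie at 0.34 and the alpha ring at −0.04, and at 44 h the 19S non-ATPases lie at 0.50 against 0.23 over all genes.

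The post-PH minus sham difference was itself compared between 48 and 10 h in the same fit. It was greater at 48 h for 15 members, beside 21.7% of all genes, and smaller for 0, beside 1.38%. The members' median was 0.40 and that of all genes 0.29. The 15 included the ATPase Psmc3, the constitutive catalytic subunits Psmb6 and Psmb7, and also Psmb8. Apart from Psmc3ip, none of them was called under all 3 scalings.

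At 1 h, 1 member was called lower than in C0, beside 8.65% of all genes, and 0 higher, beside 4.85%. It was the core chaperone Psmg3, at 9.43, 10.2 and 13.8 RPKM in C0 and at 5.49, 6.57 and 9.44 RPKM in X1 (−0.67 ± 0.10, limma adjusted p = 3.0e-07), called under all 3 scalings. Neither X1 against S1 nor S1 against C0 had a called member, beside 0.624% and 2.44% of all genes higher and 0.026% and 5.34% lower (limma). At an unadjusted p below 0.05, 0 members were higher (beside 6.14% of all genes) and 4 lower (beside 3.14%) in X1 against S1, and 2 were higher (beside 7.13%) and 20 lower (beside 30.0%) in S1 against C0. At 4 h after sham, 1 member (Psme3, 0.54) was called higher against C0, beside 11.7% of all genes, and 1 (Psmg1, −0.61) lower, beside 22.7%. At 20 h after sham, 1 was called higher (Psme4, 0.56), beside 7.85% of all genes, and 0 lower, beside 4.29%. Between X20 and S20, 0 members were called, beside 4.49% of all genes higher and 2.61% lower (limma). At an unadjusted p below 0.05, 6 were higher (beside 18.3% of all genes) and 3 lower (beside 8.46%). Without the livers numbered 9, no member was called in S20 and only Psmg1 in S4 (1 lower), and the X1 count rose to 3 without those numbered 6.

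In X1W against C0, 3 members were called lower, beside 4.48% of all genes, and 1 higher, beside 12.4%. Psmb6 (chr11:70338869-70341360, mm9) was at 32.1, 32.0 and 31.7 RPKM in X1W against 38.3, 44.2 and 56.6 RPKM in C0 (−0.51 ± 0.10, limma adjusted p = 5.6e-05), and Psmb3, a structural beta subunit, (−0.52 ± 0.10) and the chaperone Psmg4 (−0.51 ± 0.14) were the others. The median log2 fold change over the alpha ring was −0.28, over the structural beta subunits −0.37 and over the constitutive catalytic subunits −0.40, beside 0.12 over all genes. After scaling to the same median 10 members were lower, beside 10.6% of all genes, and 0 higher, beside 5.06%. By the median ratio 7 were lower, beside 7.89%, and 1 higher, beside 6.97%. No member was called with each of the 3 sets of 3 C0 livers. By the study's account the X1W livers too came from 1 of the 3 experimental periods. Without C0 replicate 8, however, none of the 3 stayed called lower (Psmb6 −0.48, Psmb3 −0.49), and Psme4 was the 1 call left. Psmb6 was not called without C0 replicate 7 or 9 either. Psmb8 was at 8.19, 6.11 and 7.39 RPKM in X1W, within the C0 range. At 4 weeks, 0 members were called between X4W and C4W with 2 livers in each group, beside 0.0325% of all genes higher and 0.0325% lower (limma). At an unadjusted p below 0.05, 1 member was higher (beside 2.14% of all genes) and 0 were lower (beside 1.92%).

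Psmc3ip passed the detection threshold mostly through the X36, X44, X48 and X72 livers. Its values are given here without a test, and its calls in the counts above are a description only. It was at 0.0319, 0.086 and 0.187 RPKM in C0, at 1.03, 2.66 and 3.34 RPKM in X36, at 2.28, 1.31 and 1.54 RPKM in X44, at 0.551, 0.780, 1.03, 1.25 and 1.15 RPKM in X48 and at 0.710, 0.403 and 0.431 RPKM in X72. In S48 it was at 0.0480, 0.177 and 0.0910 RPKM, and by 1 week at 0.0390, 0.172 and 0.134 RPKM. Its high groups were those in which the cell-cycle markers were high, and their part in its level was not tested. These markers summed to between 0.842 and 5.20 RPKM in C0, between 1.66 and 3.28 RPKM in S48, between 48.4 and 109 RPKM in X36, between 110 and 180 RPKM in X44, between 83.7 and 159 RPKM in X48 and between 53.8 and 72.4 RPKM in X72.

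Proteins that work with the proteasome but lie outside the name rule were followed as a list, of which 26 of 27 genes were measured. At 10 h post-PH against C0, 7 were called higher, beside 21.2% of all genes, and 1 lower, beside 15.2%, with a median log2 fold change of 0.23 beside 0.07 over all genes. Nfe2l1, the activator of proteasome genes (0.80 ± 0.09, limma adjusted p = 4.3e-11), Zfand2a, a stress-induced proteasome-binding protein (0.96 ± 0.11), and Ube3c, a proteasome-bound ubiquitin ligase (0.81 ± 0.12), were higher and Shfm1, a small lid subunit (−0.62 ± 0.08), lower under all 3 scalings. Scaled to the same median or by the median ratio, 3 were higher and 3 lower. At 4 h, Ddi2, the protease that activates Nfe2l1, was higher (1.12 ± 0.10, limma adjusted p = 1.7e-14) and 8 of the 26 were lower, beside 26.9% of all genes, while 3 were higher and 1 lower under each other scaling. In X48 against S48, 8 were called higher, beside 24.5% of all genes, and 0 lower, beside 2.69%, and Uchl5, a deubiquitinase of the 19S particle (0.98 ± 0.13), was called under all 3 scalings. The other scalings gave 1 higher and 1 lower (same median) and 2 higher and 1 lower (median ratio).

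Over the 19 groups, the range of group means was 0.77 (log2) for the median member and 1.12 for the median gene. The group means of each of the 31 constitutive subunits were set beside the mean of the other 30 subunits, as a description over 19 groups whose libraries share scaling and depth. Pearson's r had a median of 0.81, from 0.51 for Psmd11 to 0.98 for Psmc3. The median was 0.91 over the ATPases, 0.80 over the alpha ring and 0.78 over the non-ATPases. Among the 45 members detected in every library, the lowest r were 0.09 for Psmb8, 0.18 for Psme1, 0.25 for Psmb10, 0.26 for Psme4 and 0.35 for Psme2, of which all but Psme4 are inducible by interferon. The constitutive subunits had their highest group mean most often in X44 (9 of 31) and C4 (9), followed by X48 (6) and X10 (5), and their lowest most often in X1W (9) and X4 (6).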

How the data were processed

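Poly(A)-selected RNA of individual livers was sequenced by the authors as strand-specific, single-end reads. Per the submitters' notes and the study's methods, reads were mapped to mm9 with TopHat2 2.0.13 and Bowtie2, sorted with SAMtools 0.1.19 and counted per gene by strand with featureCounts, multiply mapped reads being split among their positions. From these counts the authors derived RPKM, deposited on the log2 scale. Close copies of a gene may thus share reads. Of 84 value columns, 80 carried the name of 1 labelled sample. The other 4 were not used, and 7 labelled samples (3 of X4, 3 of X60, 1 of X4W) were not analysed here.

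Genes above −1.5 in 1 or more libraries (15396, about 18.9 reads on 2 kb at the median depth) were tested by limma 3.58.1 (R 4.3.3, eBayes with trend) on log2(RPKM + 0.25), in one fit over 19 groups. Fold changes are on that scale, which understates those of low genes. P-values measure the spread between livers within groups. The fit held no term for experimental period. For groups that came from 1 period, the spread between periods is therefore not measured. For ratios, exact permutation tests (two-sided) were run in Python 3.11.15 (numpy 2.4.6, pandas 2.3.3, scipy 1.17.1). Plots used matplotlib 3.10.9. On simulated data for X48 against S48 over 15396 genes, 70% of 100 genes changed by 0.75 (log2) and 94% of 100 changed by 1.0 were recovered, with 4 false calls. Depth was estimated by taking the most frequent low value of RPKM times exon length as 1 read.

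Values per liver are given for the catalytic pairs, the activators, the member of each role with the largest called difference post-PH against C0 and against sham, and those around the threshold. Psmd8 was added after its values were seen. The members, lists and tests were chosen with earlier results of these data known. Alternatives were other scalings, pseudocounts and filters, C0 sets, C4 for C0, replicate blocks and leaving out replicates. The alternatives of the median ratio, the replicate subsets against all sham livers, the leaving out of X36 replicate 2 and the comparison of 48 with 10 h were added after seeing the data.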

Additional observations from a re-analysis of the deposited data

Results flagged for a closer look

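A liver lay far from the rest of its group in 3 of 184 groups of values examined, where chance gives about 5%. Psme3 was at 15.1 RPKM in X20 replicate 5, against 18.9 to 21.3 RPKM in the other 5 livers. Psmc3ip was at 1.03 RPKM in X36 replicate 2, against 2.36 to 3.34 RPKM in the others, and the cell-cycle markers were also lowest there (48.4 RPKM). The log2 ratio of Psmb10 to Psmb7 was −3.30 in X1 replicate 5, against −2.98 to −2.82 in the others.

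The post-PH minus sham difference was greater at 48 h than at 10 h for 15 members (limma, difference of differences on the log2 scale). For subunits of the 19S particle it was greater by 0.77 for Psmd14, 0.74 for Psmd13, 0.69 for Psmc3, 0.54 for Psmd2 and 0.51 for Psmd1. For the core particle it was greater by 0.80 for Psmb8, 0.63 for Psmb6, 0.59 for Psmb7, 0.57 for Psmb4, 0.54 for Psma1 and 0.54 for Psmb3. For chaperones and activators it was greater by 0.58 for Psme2, 0.54 for Psmd5 and 0.52 for Psmg2, and for Psmc3ip by 1.72, which is given as a description. The median over all genes was 0.29. Apart from Psmc3ip, none of the 15 was called under all 3 scalings, and the cause was not tested.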

How the results depend on the processing

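The counts of called members kept within 1.5 times, in every comparison, at a pseudocount of 0.1 RPKM, with no filter on low values and with detection in 3 or more libraries. Without the fold change limit they were 29 (X1), 23 (X4), 33 (X10), 21 (X20), 13 (X28), 23 (X36), 25 (X44), 29 (X48), 21 (X72), 19 (X1W), 16 (S1), 17 (S4), 22 (S10), 6 (S20) and 7 (S48) against C0, 11 (4 h), 4 (10 h), 2 (20 h) and 37 (48 h) post-PH against sham, and 12 in C4 against C0. With C0 replicates 1 to 3 they were 2 (X1), 1 (X20), 2 (X28), 3 (X36), 6 (X44), 4 (X48), 1 (X72), 1 (S1), 1 (S4), 2 (S10), 0 (S20) and 5 (C4), with replicates 4 to 6 they were 0 (X1), 4 (X4), 1 (X20), 0 (X1W), 1 (S4), 3 (S10), 0 (S20) and 10 (C4), and with replicates 7 to 9 they were 13 (X1), 14 (X4), 8 (X20), 8 (X28), 9 (X72), 10 (X1W), 5 (S1), 7 (S4), 11 (S10), 6 (S20), 5 (S48) and 0 (C4). The cause of the differences between C0 sets was not tested. Scaled to the same median they were 4 (X4), 7 (X10), 2 (X28), 4 (X36), 4 (X44), 3 (X48), 10 (X1W), 1 (S4), 3 (S10), 0 (S20), 1 (X4 against S4) and 2 (X48 against S48). Scaled by the median ratio they were 4 (X4), 7 (X10), 2 (X28), 2 (X36), 2 (X44), 2 (X48), 1 (X72), 8 (X1W), 2 (S10), 0 (S20), 0 (X4 against S4) and 2 (X48 against S48). With C4 in place of C0 they were 18 (X4) and 10 (S4), at a pseudocount of 1 RPKM 3 (X72), 1 (X4 against S4) and 1 (C4), and with only the groups compared in the fit 0 (S20), 1 (X4 against S4), 1 (X10 against S10) and 1 (C4). X4 against S4 had 1 call with replicates 4 to 6, and X10 against S10 had 1 with replicates 1 to 3 and 1 with post-PH replicates 1 to 3 against all sham livers.

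The replicate numbers were not taken to pair the samples, since in no comparison did every same-numbered pair correlate above 0.1. This rule cannot exclude an effect of experimental period, which the labels do not link to replicate numbers. With the replicate block the counts were 5 (X4), 0 (X20), 2 (X28), 3 (X36), 1 (X72), 0 (X1W), 1 (S4), 1 (S10), 0 (S20), 1 (X4 against S4) and 5 (C4), and 37 of the 64 named calls were kept.

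When each replicate number was left out in turn, the counts ranged from 1 to 3 (X1), 7 to 10 (X4), 9 to 11 (X10), 1 to 6 (X20), 2 to 6 (X28), 5 to 8 (X36), 9 to 16 (X44), 9 to 12 (X48), 4 to 7 (X72), 1 to 4 (X1W), 0 to 1 (S1), 1 to 3 (S4), 3 to 8 (S10), 0 to 2 (S20) and 0 to 0 (S48) against C0, 0 to 0 (1 h), 1 to 3 (4 h), 0 to 2 (10 h), 0 to 0 (20 h) and 8 to 14 (48 h) post-PH against sham, 0 to 4 (C4) and 0 to 0 (X4W against C4W). X36 had 8 calls without its replicate 2. The difference in the log2 ratio of Psmb10 to Psmb7 between X4 and S4, −0.17, was reversed to 0.090 without the replicates numbered 5 (adjusted p = 0.62) and ranged from −0.31 to 0.09, and the other 14 ratio differences stayed negative. Groups of 2 or 3 livers limit what could be called, and RPKM without counts gives no counting error.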
